A study of Mus musculus with 6 samples.

Results

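The 42 genes described here belong to the cell cycle machinery. They were chosen by symbol from the 56691 genes of the deposited table, and all 42 were found, each in 1 row. By role, 19 act in DNA replication and entry into S phase, 4 control G1, and 19 act in mitosis. The comparison asked how their transcripts differ when mouse bone marrow stromal cells (BMSCs, labelled as mesenchymal stem cells of wild-type genotype) differentiate in medium conditioned by Hepa 1-6, a mouse hepatoma cell line. The conditioned medium group had 3 samples and the control medium group had 3 samples. Both groups were harvested at day 7 of osteoblast differentiation, after culture with beta-glycerophosphate, ascorbic acid at 50 µg/ml and 10% FBS, with new medium every 2 days. The sources used here do not say whether control medium was fresh or had been on other cells, so factors of the hepatoma cells and an effect of conditioning as such cannot be told apart. They also do not give the age or sex of the mice, or say that replicates were separate cultures or animals, so each p-value is measured against a spread between samples that may be technical.

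A cell that enters the cycle first raises D-type cyclins, which with their kinases release E2F transcription factors from the RB protein. E2F then drives the genes of replication: the MCM helicase subunits, the loading factors, the sliding clamp PCNA and the enzymes that supply nucleotides. Later, the DREAM and MMB-FOXM1 complexes act through a promoter element called the CHR to time the mitotic genes, among them B-type cyclins, mitotic kinases and spindle motors. Marrow stromal cultures proliferate while they are precursors, and osteoblast progenitors leave the cycle as they mature.

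The libraries held 18661629 to 21329475 counts, and a gene of the 42 had between 172 and 16563 counts in a sample. All values are from bulk RNA, in which fewer cells of a type and less RNA per cell cannot be told apart. Levels are in FPKM, the counts per length of the gene's exons and per total count, and a gene rose or fell where its edgeR adjusted p was under 0.05. Markers of several cell types were present. Of 16 macrophage markers, 5 rose and 10 fell, with a median of -0.33 for the log2 fold change (conditioned minus control medium), and their summed level was 7444 to 8238 FPKM in conditioned medium, against 10020 to 11530 FPKM in control medium. Of 12 osteoblast markers, 8 were tested and all 8 fell, with a summed level of 1070 to 1145 FPKM against 1326 to 1452 FPKM in control medium. Some late osteoblast markers were near absent in both groups: Bglap, Dmp1 and Phex averaged under 0.1 FPKM. Ibsp was not among these, at 1.94 ± 0.770 FPKM in conditioned medium and 19.9 ± 2.58 FPKM in control medium (SD, n = 3 each), and fell. Of 11 stromal markers, 5 rose and 3 fell, with 788.6 to 809.4 FPKM in conditioned medium and 819 to 836 FPKM in control medium. Of 11 liver and hepatoma genes, 9 averaged under 0.1 FPKM, among them Alb and Hnf4a, and 5 of them had no count in any sample. The exceptions were Afp, at 1.42 ± 0.0833 FPKM in conditioned medium and 1.34 ± 0.0781 FPKM in control medium (SD, n = 3 each), and H19, at 9.18 ± 0.690 FPKM and 25.7 ± 1.41 FPKM, which fell. Markers of other types were summed likewise: osteoclast markers came to 128 to 131.1 FPKM against 66.21 to 71.64 FPKM in control medium, neutrophil markers to 108.8 to 114.7 FPKM against 8.71 to 12.31 FPKM, and adipocyte markers to 64.36 to 66.26 FPKM against 117.7 to 165.5 FPKM. A few genes carried these sums and those above. Lyz2 had the highest level of the macrophage markers, at 4571 FPKM in conditioned medium and 6683 FPKM in control medium. Col1a1 and Col1a2 made up most of the osteoblast sum, at 641 and 428 FPKM, against 793 and 525 FPKM in control medium. Among neutrophil markers, Mmp8 averaged 84.3 FPKM in conditioned medium and 2.91 FPKM in control medium and S100a8 24.5 FPKM and 3.71 FPKM, while S100a9 fell and Ly6g, Cxcr2 and Elane were at or near 0. Among adipocyte markers, Lpl averaged 35.3 FPKM in conditioned medium and 118 FPKM in control medium, while Fabp4 rose (22.8 FPKM and 9.20 FPKM) and Plin1 and Cidec averaged under 0.1 FPKM. Acp5 made up most of the osteoclast sum in conditioned medium, at 84.5 FPKM, against 27.3 FPKM in control medium. Of 9 osteoclast markers, 5 were tested: 3 rose, Nfatc1 fell and Ctsk was not called. Calcr and Ocstamp averaged under 0.1 FPKM. Endothelial markers were at 24.8 to 25.15 FPKM against 21.78 to 22.81 FPKM in control medium, lymphocyte markers, 3 of 9 without a count in any sample, at 1.4 to 1.98 FPKM against 3.59 to 4.2 FPKM, and erythroid and platelet markers at 29.92 to 30.42 FPKM against 38.86 to 41.15 FPKM. Whether the cell types themselves shifted, and what part this would have in the changes of cell cycle genes, was not tested.

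Cell cycle genes were expressed in both groups, and their changes were small and went both ways. By edgeR's quasi-likelihood test on counts, with Benjamini-Hochberg adjustment over the 12153 genes that averaged at least 1 FPKM, 7 of the 42 rose and 17 fell at an adjusted p under 0.05. All 42 passed the expression filter. Together 24 were called, or 57.1%, where 45.9% of all tested genes were called. Rises made up 16.7% of the 42, against 23.0% of all tested genes, and falls 40.5%, against 22.9%. None of the 42 was called with a change of 2-fold or more, which 5.28% of all tested genes reached. The median log2 fold change (conditioned minus control medium) of the 42 was -0.071, against -0.0028 for all tested genes, and the median size of the change was 0.19 against 0.18. FPKM values did not overlap between the groups in 29 of the 42 genes, or 69%, where this held for 53.2% of all tested genes.

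The count of falls was lower whichever sample was left out, at 11 to 16 of the 42. It was lowest without conditioned medium replicate 2, where 11 fell and 8 rose. In a limma test on TPM computed from FPKM, rises made up 38.6% of all calls, against 50.1% in the edgeR test, and 6 of the 42 rose and 17 fell. Of the 24 calls, 15 held under each of the 16 alternatives tried. These were Mcm2, Mcm5, Mcm6, Pcna, Rrm1, Rrm2, Tyms, Ccne1, Uhrf1, Ccna2, Ccnb2, Bub1b, Kif11, Tpx2 and Ckap2.

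**Figure D1:**
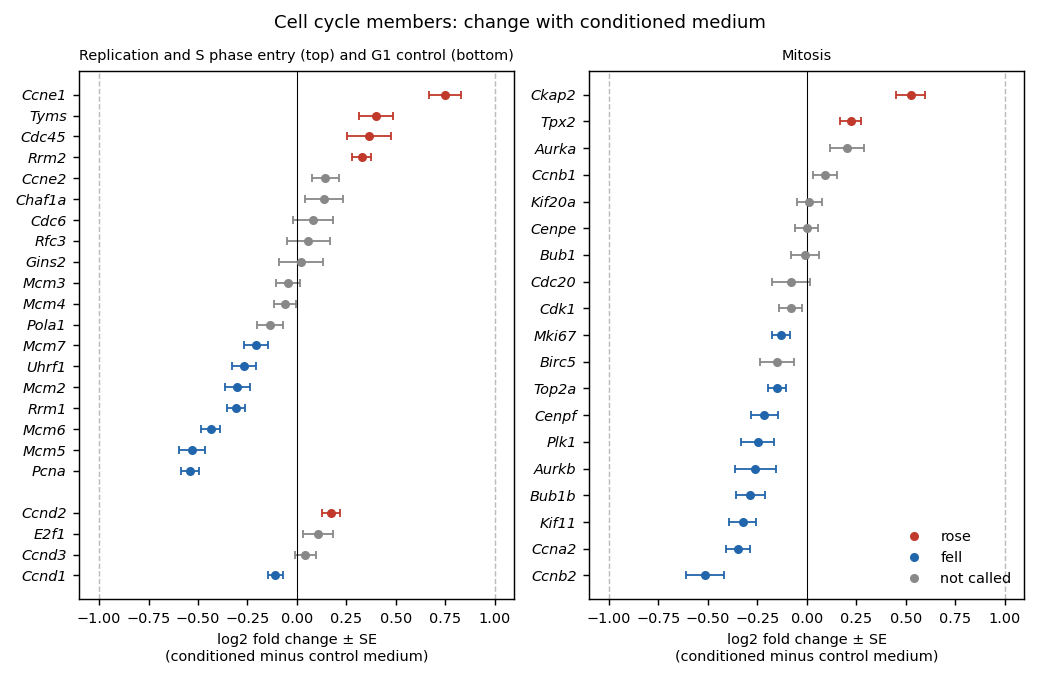
Log2 fold change with its SE for each of the 42 genes, conditioned minus control medium, with replication and G1 genes on the left and mitotic genes on the right. Red points rose and blue points fell at an adjusted p under 0.05, grey points were not called, and no point reaches the dashed lines at a change of 2-fold.

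Replication genes went both ways. There were 7 falls and 4 rises among the 19, at a median log2 fold change of -0.045. Their median per sample, relative to the control mean, was -0.13, -0.089 and 0.040 in conditioned medium, against 0.042, 8e-04 and -0.034 in control medium, so the groups overlapped. The falls were Pcna, Mcm2, Mcm5, Mcm6, Mcm7, Rrm1 and Uhrf1, and the rises Ccne1, Tyms, Cdc45 and Rrm2. The share called was 57.9%, against 45.9% of all tested genes.

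Pcna (GRCm39, chr2:132091082-132095234, minus strand) encodes the sliding clamp that tethers DNA polymerases to the template. Its level was 44.71, 42.86 and 43.66 FPKM in conditioned medium, against 66.47, 65.9 and 60.77 FPKM in control medium. Every conditioned medium sample lay below every control sample. The log2 fold change was -0.54 ± 0.046 (SE, n = 3 each, edgeR adjusted p = 3.4e-09), a fall of 31.3%.

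The MCM proteins form the ring-shaped helicase that unwinds DNA at origins, and its 6 subunit genes did not move alike. Mcm5 (chr8:75836197-75855067, plus strand) was at 8.52, 8.6 and 7.43 FPKM in conditioned medium, against 12.61, 11.63 and 11.63 FPKM in control medium. Mcm6 (chr1:128259327-128287401, minus strand) was at 19.9, 17.79 and 18.55 FPKM in conditioned medium, against 25.91, 25.88 and 25.18 FPKM in control medium. In both genes the groups were apart, with log2 fold changes of -0.53 ± 0.065 and -0.44 ± 0.049 (edgeR adjusted p = 7.6e-07 and 1.9e-07). Mcm2 changed by -0.30 ± 0.063 and Mcm7 by -0.21 ± 0.061, so that 4 of the 6 fell. The Mcm7 call was lost without control medium replicate 1 (edgeR adjusted p = 0.074). Mcm3 averaged 14.2 ± 1.07 FPKM in conditioned medium and 14.8 ± 0.890 FPKM in control medium (SD, n = 3 each), and Mcm4 15.9 ± 0.998 FPKM and 16.8 ± 0.469 FPKM. These 2 overlapped between the groups and were not called (log2 fold changes -0.045 and -0.062).

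Promoter sequences of the genes were searched for motifs of cell cycle control. RefSeq windows of the GRCm38.p6 assembly, 250 bases before to 50 bases after the gene start, were found for 33 of the 42 genes. They were searched on both strands for E2F motifs (TTTCCCGC, TTTCGCGC, TTTGCCGC or TTTGGCGC), the CHR (TTTGAA or TTCGAA) and the CCAAT box (CCAAT). An E2F motif was in 8 of 16 replication genes with a window, or 50%, in 1 of 15 mitotic genes, and in 2.6% of all 27025 genes with a window. Of the replication genes that fell, 4 of 7 held one, as did 4 of the 5 that were not called and none of the 4 that rose. The windows of Mcm5 (chr8:75109259-75109558 on the plus strand) and Mcm6 (chr1:128359656-128359955 on the minus strand) are shown as those of the helicase genes with the largest falls, and that of Ccne1 (chr7:38107441-38107740 on the minus strand) as that of the gene with the largest rise. Capitals mark E2F motifs, including pairs that overlap on opposite strands, CHR motifs and CCAAT boxes.
Mcm5: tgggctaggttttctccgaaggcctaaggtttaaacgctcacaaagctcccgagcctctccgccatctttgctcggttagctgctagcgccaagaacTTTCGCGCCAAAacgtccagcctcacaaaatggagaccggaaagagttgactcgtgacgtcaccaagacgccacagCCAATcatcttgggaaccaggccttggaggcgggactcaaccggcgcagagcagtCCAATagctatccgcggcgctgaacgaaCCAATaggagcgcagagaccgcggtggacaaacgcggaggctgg
Mcm6: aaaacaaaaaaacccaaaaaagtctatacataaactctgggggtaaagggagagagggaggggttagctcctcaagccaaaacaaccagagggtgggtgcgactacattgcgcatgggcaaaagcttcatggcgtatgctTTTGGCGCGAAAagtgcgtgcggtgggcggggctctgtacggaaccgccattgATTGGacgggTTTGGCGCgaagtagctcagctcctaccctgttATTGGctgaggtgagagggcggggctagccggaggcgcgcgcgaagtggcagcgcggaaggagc
Ccne1: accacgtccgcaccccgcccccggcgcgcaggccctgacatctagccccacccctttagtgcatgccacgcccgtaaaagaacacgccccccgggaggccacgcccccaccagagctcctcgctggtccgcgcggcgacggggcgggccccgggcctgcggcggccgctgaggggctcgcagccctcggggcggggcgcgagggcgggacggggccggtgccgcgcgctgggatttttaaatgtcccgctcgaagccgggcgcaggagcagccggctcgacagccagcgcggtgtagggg
Mcm5 and Mcm6 each hold overlapping E2F motifs. Mcm5 holds 3 CCAAT boxes and Mcm6 holds 2, which lie on the opposite strand and read ATTGG. No motif searched for lies in the Ccne1 window. A match describes the letters alone. Binding was not measured, in windows with a motif or without one.

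Ccne1 (GRCm39, chr7:37797409-37806959, minus strand), which encodes cyclin E1, the partner of CDK2 at the start of S phase, had the largest change of the 42. Its level was 8.9, 8.51 and 8.03 FPKM in conditioned medium, against 5.31, 4.97 and 5.04 FPKM in control medium. The groups were well apart, and the log2 fold change of 0.75 ± 0.081 (SE, n = 3 each, edgeR adjusted p = 1.4e-07) is a rise of 67.9%. The related Ccne2 was at 8.69, 8.08 and 8.92 FPKM, against 8.02, 7.95 and 7.58 FPKM in control medium. All conditioned medium values were above the control values, but the gene was not called (0.14 ± 0.067, edgeR adjusted p = 0.088).

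Nucleotide supply genes also moved apart. Rrm1 and Rrm2 encode the large and the small subunit of ribonucleotide reductase, which makes deoxyribonucleotides. Rrm2 was at 33.19, 31.97 and 32.65 FPKM in conditioned medium, against 27.25, 26.68 and 24.97 FPKM in control medium, a log2 fold change of 0.33 ± 0.049. Rrm1 was at 16.18, 15.63 and 16.66 FPKM in conditioned medium, against 20.75, 20.81 and 19.08 FPKM in control medium, a change of -0.31 ± 0.046 (edgeR adjusted p = 1e-05 for Rrm2 and 1.2e-05 for Rrm1). So the small subunit transcript was higher, and the large subunit transcript lower, in each of the 3 conditioned medium samples. Tyms, which encodes thymidylate synthase, was at 2.63, 2.92 and 2.83 FPKM, against 2.13, 2.17 and 2.12 FPKM in control medium (0.40 ± 0.087, edgeR adjusted p = 7e-04).

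Among the other replication genes, Cdc45, a helicase cofactor, averaged 3.27 ± 0.362 FPKM in conditioned medium and 2.57 ± 0.175 FPKM in control medium (SD, n = 3 each). It rose by 0.36 ± 0.11 on the log2 scale (edgeR adjusted p = 0.011), and the call was lost without conditioned medium replicate 1 (edgeR adjusted p = 0.089). Uhrf1, which guides maintenance methylation of new DNA, changed by -0.27 ± 0.061. The remaining genes were not called, with log2 fold changes between -0.14 and 0.14 for the 8, which include Mcm3, Mcm4 and Ccne2. The other 5 are the helicase cofactor gene Gins2, the origin loading gene Cdc6, the histone chaperone gene Chaf1a, the clamp loader gene Rfc3 and the polymerase alpha gene Pola1. Pola1 was lower in every conditioned medium sample, with 3.34, 3.24 and 3.5 FPKM against 3.86, 3.54 and 3.81 FPKM in control medium, without passing the test (edgeR adjusted p = 0.096).

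**Figure D2:**
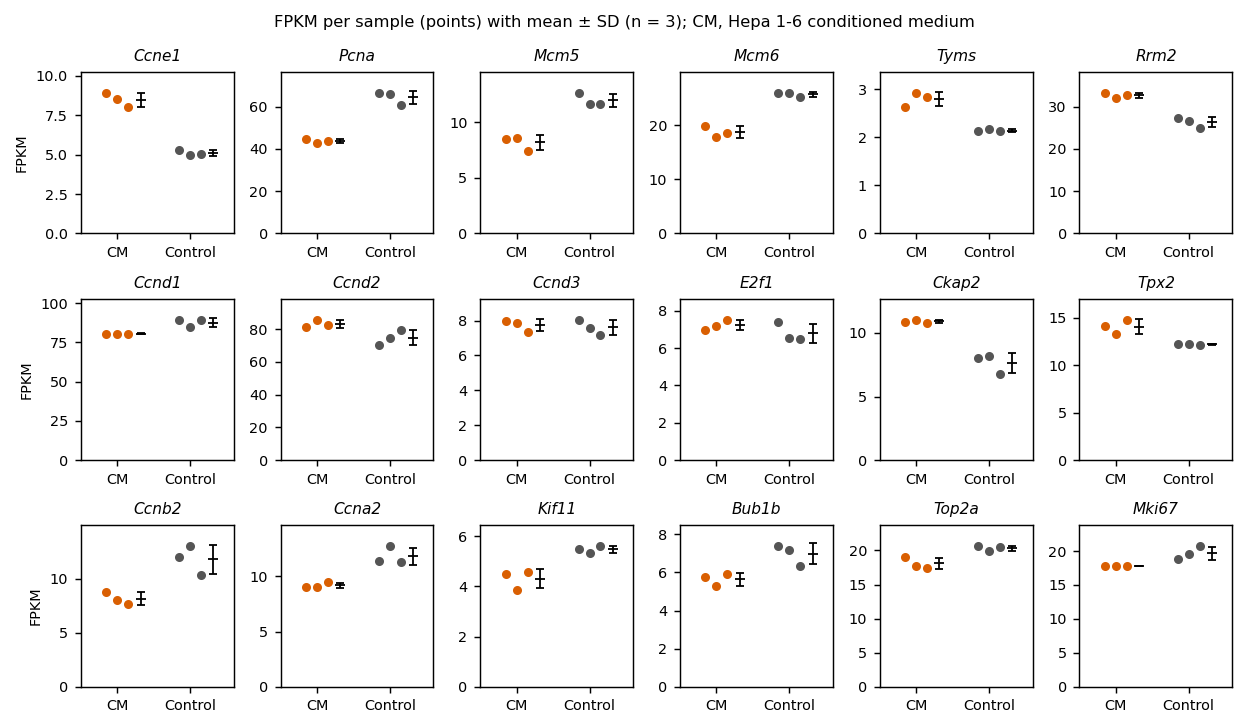
FPKM in each sample for 18 of the 42 genes, with conditioned medium (CM) on the left and control medium on the right of each panel, and bars for the mean ± SD of 3 samples. Pcna, Mcm5, Mcm6 and Ccnb2 lie lower in all conditioned medium samples, and Ccne1, Tyms, Rrm2 and Ckap2 lie higher.

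Of the 4 G1 genes, 1 rose and 1 fell, or 50% called, near the 45.9% of all tested genes. Ccnd1 and Ccnd2 had the highest FPKM of the 42. Ccnd1 and Ccnd2 encode cyclins D1 and D2, which activate CDK4 and CDK6 in response to growth signals. Ccnd1 was at 80.08, 80.69 and 80.68 FPKM in conditioned medium, against 89.07, 84.55 and 89.55 FPKM in control medium. Ccnd2 was at 81.6, 85.89 and 82.53 FPKM in conditioned medium, against 70.49, 74.39 and 79.51 FPKM in control medium. Both genes were apart between the groups, with log2 fold changes of -0.11 ± 0.040 for Ccnd1 and 0.17 ± 0.046 for Ccnd2 (edgeR adjusted p = 0.033 and 0.0043). In conditioned medium Ccnd2 thus stood slightly above Ccnd1, and in control medium below it. The Ccnd1 call was lost without any 1 of the conditioned medium replicates (edgeR adjusted p = 0.11, 0.089 and 0.094 without replicates 1, 2 and 3) and without control medium replicate 1 (0.079), and with no filter beyond 1 count (0.066). The Ccnd2 call was lost with limma on TPM (adjusted p = 0.13).

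Ccnd3, the gene of the third D-type cyclin, was at 7.99, 7.87 and 7.35 FPKM in conditioned medium, against 8.05, 7.56 and 7.19 FPKM in control medium. E2f1, the transcription factor that activates replication genes, was at 6.96, 7.2 and 7.52 FPKM, against 7.37, 6.52 and 6.49 FPKM in control medium. The groups overlapped in both genes, and neither was called (log2 fold changes 0.042 ± 0.054 and 0.11 ± 0.076, edgeR adjusted p = 0.56 and 0.27).

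Mitotic genes leaned downward. There were 9 falls and 2 rises among the 19, at a median log2 fold change of -0.13, and 14 had a value below 0. Their median per sample, relative to the control mean, was -0.071, -0.15 and -0.13 in conditioned medium, against 0.010, -0.0044 and -0.036 in control medium, without overlap. The falls lay between -0.13 and -0.52, or 8.68% to 30.0%. Falls were called in 47.4% of the mitotic genes, against 22.9% of all tested genes. Leaving out a sample gave 4 to 8 falls, the fewest without conditioned medium replicate 2, and at an adjusted p under 0.01 the count was 5. No test of the difference between mitotic and replication genes was made.

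Cyclin genes of mitosis differed among themselves. Ccnb2 (GRCm39, chr9:70314974-70328829, minus strand), which encodes cyclin B2, was at 8.78, 8.05 and 7.66 FPKM in conditioned medium, against 12.01, 13.01 and 10.39 FPKM in control medium, with no overlap (log2 fold change -0.52 ± 0.098, edgeR adjusted p = 1.8e-04). Ccna2, the gene of cyclin A2, which acts in S phase and at mitotic entry, was at 9.05, 9.06 and 9.48 FPKM, against 11.42, 12.73 and 11.33 FPKM in control medium (-0.35 ± 0.061, edgeR adjusted p = 8.4e-05). Ccnb1, which encodes cyclin B1, was at 8.86, 8.79 and 9.48 FPKM in conditioned medium, against 8.68, 8.85 and 8.22 FPKM in control medium, and was not called (0.093 ± 0.061, edgeR adjusted p = 0.23). Their partner kinase gene Cdk1 was at 7.72, 7.44 and 7.69 FPKM, against 8.54, 8.0 and 7.92 FPKM in control medium (-0.081 ± 0.058, edgeR adjusted p = 0.28).

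The CHR was in 12 of the 15 mitotic genes with a promoter window, or 80%, and each of these 12 also held a CCAAT box. It was in 4 of 16 replication genes and in 21.7% of all 27025 genes with a window, and both motifs together were in 8.61% of all. All 7 mitotic genes that fell and had a window held both motifs, as did 4 of the 7 that were not called. These counts hold for TTTGAA and TTCGAA alone, since no other form of the CHR was searched for. Ccnb2 (chr9:70421505-70421804 on the minus strand) is shown as the mitotic gene with the largest fall, Top2a (chr11:99024140-99024439 on the minus strand) for the number of its motifs, and Ckap2 (chr8:22185770-22186069 on the minus strand) as the mitotic gene with the largest rise. Capitals mark CHR motifs and CCAAT boxes on either strand, a CCAAT box on the opposite strand reading ATTGG. None of the 3 windows holds an E2F motif of the kind searched for.
Ccnb2: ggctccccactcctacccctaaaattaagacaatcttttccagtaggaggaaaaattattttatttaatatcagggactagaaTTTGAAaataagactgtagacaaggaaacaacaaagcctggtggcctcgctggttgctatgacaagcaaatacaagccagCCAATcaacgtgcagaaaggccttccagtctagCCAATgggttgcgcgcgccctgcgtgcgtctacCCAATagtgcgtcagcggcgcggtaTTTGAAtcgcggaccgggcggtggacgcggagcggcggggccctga
Top2a: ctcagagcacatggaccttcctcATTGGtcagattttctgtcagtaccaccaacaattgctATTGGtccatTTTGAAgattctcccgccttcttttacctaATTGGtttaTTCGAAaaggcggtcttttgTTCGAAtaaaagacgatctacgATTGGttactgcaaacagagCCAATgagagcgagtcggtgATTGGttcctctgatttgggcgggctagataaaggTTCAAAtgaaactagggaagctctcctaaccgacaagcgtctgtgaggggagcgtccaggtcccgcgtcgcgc
Ckap2: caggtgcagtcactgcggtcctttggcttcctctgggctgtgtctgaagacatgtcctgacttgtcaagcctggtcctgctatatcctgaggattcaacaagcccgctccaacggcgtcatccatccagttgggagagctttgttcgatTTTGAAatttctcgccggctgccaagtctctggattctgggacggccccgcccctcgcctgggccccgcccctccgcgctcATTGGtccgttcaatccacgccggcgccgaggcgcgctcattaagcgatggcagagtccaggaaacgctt
The 3 CCAAT boxes of Ccnb2 begin 87, 54 and 21 bases before the gene start, 33 bases apart. Top2a holds 6 CCAAT boxes and 4 CHR motifs. Ckap2, whose transcript rose, holds 1 of each.

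A pair of widely used proliferation markers fell slightly. Mki67, which encodes the Ki-67 antigen of cycling cells, was at 17.79, 17.75 and 17.77 FPKM in conditioned medium, against 18.82, 19.49 and 20.7 FPKM in control medium. Top2a, the gene of the DNA topoisomerase that untangles chromosomes, was at 19.1, 17.69 and 17.5 FPKM in conditioned medium, against 20.62, 19.94 and 20.47 FPKM in control medium. Groups did not overlap in either gene, and the falls were 8.68% for Mki67 and 10.0% for Top2a (edgeR adjusted p = 0.024 and 0.0090). The Mki67 call was lost without any 1 of the conditioned medium replicates (edgeR adjusted p = 0.070, 0.075 and 0.072 without replicates 1, 2 and 3), and that of Top2a without replicate 2 or 3 (0.056 and 0.068), while over the 16 alternatives the log2 fold changes stayed between -0.18 and -0.089 for Mki67 and between -0.21 and -0.13 for Top2a.

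Among spindle motors and checkpoint genes, Kif11, which encodes the motor that pushes spindle poles apart, was at 4.5, 3.87 and 4.57 FPKM in conditioned medium, against 5.49, 5.33 and 5.6 FPKM in control medium (log2 fold change -0.32 ± 0.067, edgeR adjusted p = 4.7e-04). Bub1b, which encodes the checkpoint protein BubR1, was at 5.74, 5.27 and 5.94 FPKM, against 7.37, 7.2 and 6.36 FPKM in control medium (-0.28 ± 0.075, edgeR adjusted p = 0.0036). Both were lower in all 3 conditioned medium samples. The related kinase gene Bub1 averaged 6.90 ± 0.468 FPKM in conditioned medium and 7.03 ± 0.308 FPKM in control medium (SD, n = 3 each) and was not called. The kinetochore gene Cenpf changed by -0.22 ± 0.069, the mitotic kinase gene Plk1 by -0.25 ± 0.084 and Aurkb, the kinase gene of the chromosomal passenger complex, by -0.26 ± 0.10. Each of these 3 calls was lost when a single sample was left out. Without conditioned medium replicate 2 the edgeR adjusted p was 0.066, 0.096 and 0.17. Aurkb was also lost without conditioned medium replicate 3 (0.15) and control medium replicate 2 (0.22), Plk1 without control medium replicate 1 (0.095) and Cenpf without control medium replicate 3 (0.061). DESeq2 did not call Aurkb (adjusted p = 0.080), nor did edgeR with no filter (0.055) or limma on FPKM (0.057 and 0.056 for the 2 pseudocounts), and limma did not call Cenpf (0.10 on FPKM and 0.088 on TPM).

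Rises among mitotic genes were found in 2 that act on spindle microtubules. Ckap2 (GRCm39, chr8:22658176-22675835, minus strand), which encodes a cytoskeleton protein of the spindle, was at 10.88, 11.04 and 10.78 FPKM in conditioned medium, against 8.05, 8.18 and 6.74 FPKM in control medium. The log2 fold change was 0.53 ± 0.073 (SE, n = 3 each, edgeR adjusted p = 4.4e-06), a rise of 44.0%. Tpx2, which encodes the activator of Aurora A on the spindle, was at 14.14, 13.28 and 14.8 FPKM, against 12.22, 12.28 and 12.13 FPKM in control medium (0.22 ± 0.053, edgeR adjusted p = 0.0018). Aurka, the Aurora A gene, was at 7.31, 6.52 and 7.82 FPKM, against 6.37, 6.32 and 6.36 FPKM in control medium. It was higher in all 3 conditioned medium samples without passing the test (0.20 ± 0.086, edgeR adjusted p = 0.061), and it passed without conditioned medium replicate 2 (0.024). The motor genes Cenpe and Kif20a, the checkpoint target gene Cdc20 and the passenger gene Birc5 (survivin) were not called, with log2 fold changes of -4e-04, 0.012, -0.080 and -0.15. Birc5 passed as a fall with limma on TPM (adjusted p = 0.047).

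Ratios between partner genes were taken within each sample. The 6 pairs were chosen after the values had been seen, and ratios are of FPKM, which is per length. Rrm2 over Rrm1 was 2.05, 2.04 and 1.96 in conditioned medium, against 1.31, 1.28 and 1.31 in control medium. Ccne1 over Ccne2 was 1.02, 1.05 and 0.900 in conditioned medium, against 0.662, 0.625 and 0.665 in control medium, and Ccnb2 over Ccnb1 was 0.991, 0.916 and 0.808, against 1.38, 1.47 and 1.26 in control medium. The groups did not overlap in these 3 pairs. Mcm5 over Mcm4 averaged 0.517 ± 0.0706 in conditioned medium and 0.711 ± 0.0242 in control medium (SD, n = 3 each), and Ccnd2 over Ccnd1 1.03 ± 0.0252 and 0.853 ± 0.0535, again without overlap. Tpx2 over Aurka averaged 1.96 ± 0.0742 in conditioned medium and 1.92 ± 0.0183 in control medium, and its groups overlapped. In an exact permutation test over samples, two-sided, no pair passed: 5 pairs gave p = 0.1, the smallest that 3 samples against 3 allow (adjusted p = 0.12 over the 6 pairs), and Tpx2 over Aurka gave p = 0.7.

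**Figure D3:**
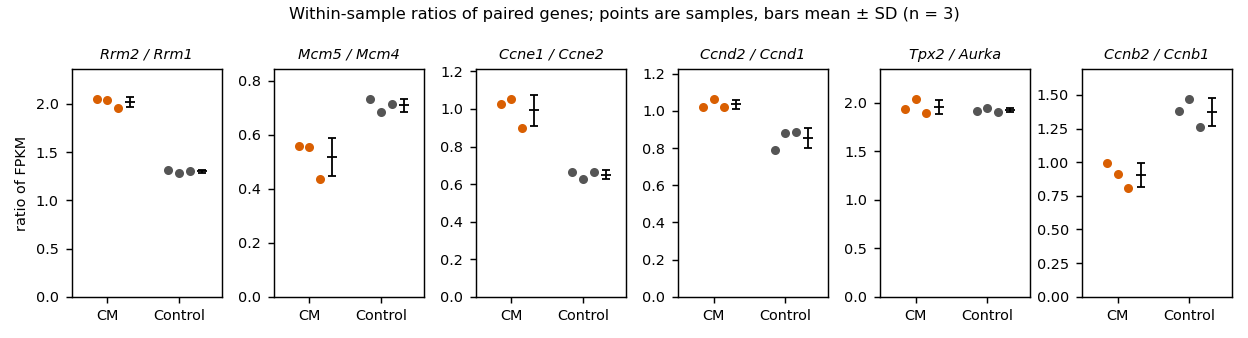
Ratio of the FPKM of paired genes in each sample, with conditioned medium (CM) on the left and control medium on the right of each panel, and bars for the mean ± SD of 3 samples. Rrm2 over Rrm1, Ccne1 over Ccne2 and Ccnd2 over Ccnd1 are higher and Mcm5 over Mcm4 and Ccnb2 over Ccnb1 lower in all conditioned medium samples, and Tpx2 over Aurka overlaps.

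Reads of some genes could be shared with a neighbour. Of the 42 genes, 9 overlap a gene on the opposite strand that held over 10% as many counts: Mcm7, Gins2, Cdc45, Ccne2, Chaf1a, Ccnd3, Ccna2, Kif20a and Cdc20. The sources used here do not say if strand was used in counting. Processed copies held few counts, the most being Ccnb2-ps with 7.21% of the counts of Ccnb2 and Ccnb1-ps with 0.711% of those of Ccnb1. Values of these cyclins are uncertain, since reads that fit both copies were not measured.

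Other genes of the pathway were examined in 9 lists, from which 128 genes were tested. Of these, 17 rose and 40 fell, or 44.5% called against 45.9% of all tested genes, with a median log2 fold change of -0.092. Falls made up 31.2%, against 22.9% of all tested genes, and 2 of the 128 fell by 2-fold or more. The shares called were 52.9% for licensing, 31.6% for polymerases and ligation, 40% for nucleotide supply, 40% for CDKs and inhibitors, 44.4% for E2F, RB and DREAM, 55.6% for entry and checkpoint genes and 33.3% for mitotic exit.

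Replication licensing genes went both ways, with 5 rises and 4 falls among 17 tested. Orc1, the largest subunit gene of the origin recognition complex, averaged 2.55 ± 0.210 FPKM in conditioned medium and 1.53 ± 0.281 FPKM in control medium (SD, n = 3 each, log2 fold change 0.75 ± 0.14). Gins1, a helicase cofactor gene, averaged 2.77 ± 0.114 FPKM and 4.05 ± 0.435 FPKM (-0.53 ± 0.15). Of 19 polymerase, clamp loader and ligation genes, 2 rose and 4 fell. Lig1, the ligase gene that joins Okazaki fragments, changed by -0.63 ± 0.069 and the histone chaperone gene Asf1b by -0.45 ± 0.094. Of 10 nucleotide supply genes, 2 rose and 2 fell, the falls being the salvage kinase genes Dck (24.4 ± 0.490 FPKM in conditioned medium and 36.7 ± 1.56 FPKM in control medium, log2 fold change -0.58 ± 0.047) and Tk1 (-0.56 ± 0.11).

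Of 10 tested genes of CDKs and their inhibitors, 1 rose, the kinase gene Cdk4 (log2 fold change 0.21, edgeR adjusted p = 0.0013, named after its value was seen), and 3 fell, all inhibitors. Cdkn1a, which encodes the p53-induced inhibitor p21, was the most abundant of the inhibitor genes, at 114 ± 1.98 FPKM in conditioned medium and 122 ± 3.22 FPKM in control medium (SD, n = 3 each), and was not called (log2 fold change -0.075 ± 0.040, edgeR adjusted p = 0.14). It was called without control medium replicate 3 (0.036) and with limma on TPM (0.010), as a fall both times. The INK4 inhibitor genes Cdkn2c and Cdkn2b changed by -0.70 ± 0.098 and -0.39 ± 0.077, and Cdkn1b, which encodes p27, by -0.19 ± 0.067. The Cdkn1b call (edgeR adjusted p = 0.022) was lost without conditioned medium replicate 1 or 2 (0.062 and 0.10) and without control medium replicate 1 or 2 (0.12 and 0.075), and with limma on FPKM (0.058 and 0.059). Cdkn2a was at -0.21 ± 0.091 (0.063) and was called as a fall without conditioned medium replicate 2 (0.039) and without control medium replicate 1 (0.045), with total counts (0.045), and with limma on FPKM (0.048 and 0.05 for the 2 pseudocounts) and TPM (0.037). Cdkn1c, also named after its values were seen, lay below the expression filter, with 36 counts over the conditioned medium samples and 141 over the control samples.

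E2f2, an activating E2F gene, had the largest fitted change of the 128 genes tested in these lists, at 0.810 ± 0.0458 FPKM in conditioned medium and 2.05 ± 0.210 FPKM in control medium (SD, n = 3 each, log2 fold change -1.32 ± 0.14, edgeR adjusted p = 5.9e-08). In its list of E2F, RB and DREAM genes, 2 rose and 6 fell of 18. The repressor gene E2f8 changed by -0.46 ± 0.10. The mitotic transcription factor genes Foxm1 and Mybl2 were not called (log2 fold changes 0.063 ± 0.083 and 0.28 ± 0.14, edgeR adjusted p = 0.58 and 0.11). Mybl2 was called as a rise without control medium replicate 1 (log2 fold change 0.46, edgeR adjusted p = 0.010). Of 9 genes of CDC25 phosphatases, WEE1 kinases and checkpoints, 2 rose and 3 fell, and the kinase genes Chek2 and Wee1 changed by -0.48 ± 0.075 and -0.46 ± 0.069.

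Spindle and kinetochore genes held 1 rise and 11 falls among 23 (median -0.16), so that 47.8% fell, against 22.9% of all tested genes. The motor gene Kif15 changed by -0.49 ± 0.081 and the spindle gene Nusap1 by -0.46 ± 0.086. Of 13 genes of condensin and cohesion, 0 rose and 6 fell by edgeR (median -0.14). All calls were thus falls, at 46.2%, against 22.9% that fell among all tested genes. The share called in either direction was 46.2%, near the 45.9% of all tested genes. Ncapg2, a subunit gene of condensin II, averaged 4.75 ± 0.442 FPKM in conditioned medium and 11.1 ± 0.407 FPKM in control medium (SD, n = 3 each), a log2 fold change of -1.20 ± 0.059 (edgeR adjusted p = 3.7e-13). The cohesin acetyltransferase gene Esco2 changed by -0.35 ± 0.12, a call that was lost without conditioned medium replicate 2 (edgeR adjusted p = 0.14) and without control medium replicate 1 or 2 (0.097 and 0.066), and with limma on FPKM or TPM (0.089, 0.095 and 0.064). Of 9 genes of mitotic exit, 2 rose and 1 fell: the ubiquitin-conjugating enzyme gene Ube2s changed by 0.33 ± 0.050 and the checkpoint gene Bub3 by -0.18 ± 0.054. The Bub3 call was lost without control medium replicate 1 (edgeR adjusted p = 0.061).

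**Figure D4:**
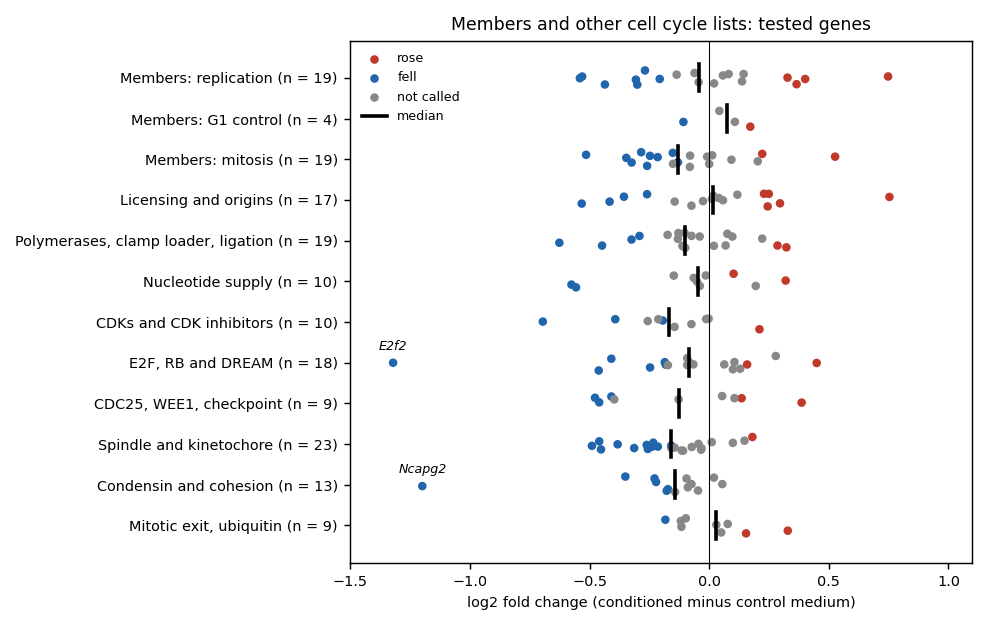
Log2 fold change, conditioned minus control medium, of each tested gene of the 3 groups of the 42 (top) and of 9 other cell cycle lists, with black bars for medians. E2f2 and Ncapg2 are the 2 genes beyond a 2-fold change, and the medians of the lists lie between -0.17 and 0.075.

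Broader groups came from the terms in the deposited table. After the 42 genes were left out, 75 tested genes of the GO term DNA replication held 17 rises and 17 falls (median 0.015). For chromosome segregation, 74 genes held 9 rises and 17 falls (median -0.030), and for cell division 307 genes held 60 rises and 74 falls (median -0.023). Of 106 other tested genes of the KEGG cell cycle pathway, 19 rose and 30 fell, and of 25 of KEGG DNA replication, 1 rose and 5 fell. The shares called were 45.3%, 35.1%, 43.6%, 46.2% and 24.0%, against 45.9% of all tested genes. In the same order, falls made up 22.7%, 23%, 24.1%, 28.3% and 20%, against 22.9% of all tested genes.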

How the data were processed

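RNA of 3 samples in conditioned and 3 in control medium was poly(A)-selected and read from both ends, per the labels' protocols. HISAT2 2.0.1, HTSeq 0.6.1, cutadapt 1.9.1, GRCm39 and DESeq2 stand, without role or order, in the submitters' processing notes. The authors deposited, per the file headers, a read count and an FPKM value per gene and sample. The deposited FPKM equalled counts per exonic length and total count in 100% of values, within 0.006. Genes averaging at least 1 FPKM (12153) were tested on the deposited counts with edgeR 4.0.16 in R 4.3.3 (quasi-likelihood test, TMM factors, group as the single term, Benjamini-Hochberg adjustment). Each SE was taken from the unshrunk log2 fold change and the F statistic (its size divided by the root of F). Alternatives used DESeq2 1.42.0 and limma 3.58.1 with a pseudocount of 1 or 0.1. The functions were tested on simulated data. No pair of replicates agreed within sampling noise (chi-square per degree of freedom 2.24 to 9.03).

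Full values per sample were given for the G1 genes and, in the replication and mitotic lists, for the 5 largest changes and the 3 highest levels; a few further genes (Ccne2, Rrm1, Pola1, Ccnb1, Cdk1 and Aurka) were added after values were seen. Of each other list, up to 2 called genes with the largest change were named, and Cdkn1a, Cdkn1b, Cdkn2a, Foxm1 and Mybl2 whatever their result. Of 133 symbols in these lists, 131 were found. The members and lists were chosen with earlier results of these data known. Promoter sequences are from RefSeq (GRCm38.p6) and were matched by symbol.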

Additional observations from a re-analysis of the deposited data

How the results depend on the processing

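Of 672 comparisons of a gene's value with an alternative (42 genes, 16 alternatives), 615 kept their direction and side of the threshold, 33 lost the call, 2 gained it and 22 changed sign. Of the 18 genes not called, 16 were called under no alternative. Leaving out a sample gave 11 to 16 falls among the 42 genes (17 with all samples), 4 to 8 among mitotic genes (9) and 0 to 1 among G1 genes (1). At an adjusted p under 0.01 the falls were 5 among mitotic and 0 among G1 genes. G1 falls were also 0 with no filter beyond 1 count, and G1 rises 0 with limma on log2(TPM + 1). The causes were not tested, apart from the fewer samples or the stricter threshold themselves.

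Foxm1 also changed sign. The sign changes, up to 0.044 in size, were in 9 genes that were not called. Cenpe was at 7e-04 with DESeq2 size factors, 6e-04 with DESeq2, 0.0023 with no filter, and -0.041 to 0.043 leaving out a sample. Kif20a was at -0.0038 with total counts, -0.0052 and -0.0058 with limma on log2(FPKM + 1) and log2(FPKM + 0.1), -0.044 with limma on log2(TPM + 1), and -0.019 to 0.052 leaving out a sample. With limma on log2(TPM + 1), Gins2 was at -0.031, Rfc3 at -0.0018 and Ccnd3 at -0.013. Leaving out a sample gave -0.030 to 0.074 for Gins2, -0.043 to 0.13 for Rfc3, -0.069 to 0.021 for Bub1, -0.18 to 0.014 for Cdc20, -0.0024 to 0.14 for Cdc6 and -0.0056 to 0.10 for Foxm1.

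Replicate numbers are shared by the groups, but same-numbered samples did not deviate together (correlations of deviations -0.004, 0.039 and 0.051), so they were not taken as pairs. With the number as a replicate block, 7 of the 42 genes rose and 17 fell, 4 and 7 of the replication genes, 2 and 9 of the mitotic genes and 1 and 1 of the G1 genes, and 2831 and 2831 of all genes. Not every sample correlated best with its own number.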

Other observations

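Genes of chromatin in cycling cells, a list of 12 chosen after the values above had been seen, held 1 rise and 6 falls (median log2 fold change -0.17). Stmn1, which encodes the microtubule protein stathmin, averaged 24.3 ± 0.598 FPKM in conditioned medium and 32.9 ± 2.58 FPKM in control medium (SD, n = 3 each, log2 fold change -0.42 ± 0.059, edgeR adjusted p = 5.2e-06). Hmgb2, a chromatin protein gene of cycling cells, changed by -0.37 ± 0.072, Dek by -0.35 and Dnmt1, the maintenance methyltransferase gene, by -0.25. Hells, a chromatin remodelling gene, rose by 0.18. The share called was 58.3%, against 45.9% of all tested genes.

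Among 11 genes of growth arrest and MYC, also chosen after values had been seen, 5 rose and 3 fell, or 72.7% called, against 45.9% of all tested genes. Myc itself averaged 19.9 FPKM in conditioned medium and 15.6 FPKM in control medium (log2 fold change 0.37, edgeR adjusted p = 2.2e-05). Its antagonist genes moved apart, Mxd1 by 0.65 and Mxd4 by -0.45. The antiproliferative gene Btg1 rose by 0.95, at 32.5 FPKM against 17.0 FPKM in control medium, and Btg3 by 0.49, while Btg2 fell by 0.15 on the log2 scale. Gas1, a growth arrest gene, averaged 6.26 ± 0.147 FPKM in conditioned medium and 3.07 ± 0.0551 FPKM in control medium (SD, n = 3 each, log2 fold change 1.04 ± 0.090), and Gas6, which encodes a ligand of TAM receptors, 133 ± 4.06 FPKM and 286 ± 7.94 FPKM (-1.09 ± 0.041).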
